A study of Mus musculus with 12 samples.

Results

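Small nucleolar RNAs (snoRNAs) are short noncoding RNAs that guide chemical modification of ribosomal RNA in the nucleolus. Box C/D snoRNAs (Snord genes) direct 2′-O-methylation by the methyltransferase fibrillarin, and box H/ACA snoRNAs (Snora genes) direct the conversion of uridine to pseudouridine by dyskerin. A few of them, among them the U8, U14, U17 and U22 RNAs, act in the cleavage of the ribosomal RNA precursor itself. In mammals most snoRNAs have no promoter of their own and are cut out of introns of a host gene, which is often a gene for a ribosomal protein or a noncoding RNA of the Snhg family.

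The 56 probe sets described here were those of the array that the platform annotation gave exactly 1 symbol made of Snord or Snora and a number, among 21789 probe sets with exactly 1 symbol. They stood for 51 genes on 15 chromosomes. The box C/D class held 33 probe sets of 31 genes and the box H/ACA class 23 probe sets of 20 genes. No gene had to be left out for lying between Dlk1 and Dio3 on chromosome 12, and the Snhg host genes were kept apart as hosts. A further 41 probe sets that listed several symbols with a snoRNA among them were left out. The RefSeq genes were 45 to 148 bases long in the box C/D class (median 68) and 61 to 205 bases long in the box H/ACA class (median 125).

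The series held 12 arrays, each of total RNA from the quadriceps muscle of 1 mouse of the strain C57Bl/6 at day 7 after birth. The 6 arrays titled KO1 to KO6 were labelled as cofilin-2 null, and the 6 titled WT1 to WT6 as wildtype, which the study describes as littermates. Cofilin-2 is the muscle form of an actin-binding protein that shortens and turns over actin filaments, and the null allele was present in the whole animal. RNA was purified with a silica column kit for fibrous tissue, and such columns retain RNA as short as mature snoRNAs only in part. A probe set inside a short gene also cannot tell the mature snoRNA from the host intron that carries it.

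Cfl2, the targeted gene, opposed the labels on all 12 arrays. Its log2 level was 12.31, 12.31, 12.39, 12.43, 12.41 and 12.43 on KO1 to KO6, against 4.92, 5.08, 7.71, 5.92, 6.52 and 6.20 on WT1 to WT6. The difference of 6.32 ± 0.36 (SE) was upward on the arrays labelled KO (limma, adjusted p = 1.98e-07). This direction is opposite to the null genotype of the labels and of the study. Every array was left in the group of its title. The groups are therefore called labelled KO and labelled WT, and each direction below is that of the labels. If the arrays with low Cfl2 were those of the null mice, every direction below would be reversed.

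Muscle fibre genes were abundant on every array, with a mean level of the 6 fibre markers of 13.09 to 13.16 on the arrays labelled KO and 13.06 to 13.15 on those labelled WT. Of these markers 3 were lower on the arrays labelled KO (differences of -0.16 for Myh8, -0.15 for Mylpf and -0.12 for Tnnt3) and Actn3 was higher by 0.54, while Acta1 (-0.08) and Ckm (-0.02) did not pass. Markers of other cells also moved with the labels. Adipocyte markers were higher on the arrays labelled KO for 4 of 5 genes, macrophage markers for 3 of 3 and endothelial markers for 3 of 3. Of the neuron markers 0 of 5 passed the test. Among the adipocyte genes Ucp1 differed by 2.75 and Lep by 2.12. The paper reports both as reduced in its null mice, so their direction by label is opposite to the paper's, as for Cfl2. Myh8, which the paper describes as upregulated, was likewise opposite by label. The mean level of the adipocyte markers was 7.07 to 9.40 on labelled KO arrays and 6.94 to 7.98 on labelled WT arrays. For macrophage markers it was 8.73 to 9.01 on labelled KO arrays and 8.06 to 8.57 on labelled WT arrays, and for endothelial markers 10.72 to 10.86 and 10.06 to 10.58. Of the other markers 1 of 2 Schwann cell and 1 of 2 dividing cell genes were higher. Of the fibroblast genes 2 of 3 were higher and 1 lower, and 0 of 3 neutrophil and 0 of 1 erythroid genes passed. Of all 21789 probe sets 31.9 percent passed, 19.5 percent higher and 12.4 percent lower. In whole muscle, fewer cells of a type and less RNA per cell cannot be told apart. The part of these other cells in the snoRNA values was not tested.

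The snoRNAs that passed the test below lie in 3 host genes, and the sequences around the annotated start sites of these hosts are shown because most snoRNAs are transcribed from the start of their host. Each window runs from 30 bases before to 30 bases after the start in RefSeq GRCm38.p6, on the transcribed strand. Capitals mark a C followed by at least 4 further C or T bases that begins within 5 bases of the start, the letters of a terminal oligopyrimidine tract. Such tracts are known from genes of ribosomal proteins and of snoRNA hosts.
Snhg12 (chr4:132308648-132308707, plus strand, host of Snora16a and Snora44): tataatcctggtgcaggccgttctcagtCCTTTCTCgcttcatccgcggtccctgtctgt
Snhg3 (chr4:132353657-132353716, minus strand, host of Snora73a and Snora73b): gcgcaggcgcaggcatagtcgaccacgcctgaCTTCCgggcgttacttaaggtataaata
Chd8 (chr14:52257731-52257790, minus strand, host of Snord8): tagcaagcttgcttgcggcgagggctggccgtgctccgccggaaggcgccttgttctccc
The letters were present in the windows of Snhg12 and Snhg3 and not in that of Chd8. Of the 41 host genes, 30 were in the RefSeq table of start sites, and 13 of them (43.3%) had such a tract, against 21.2% of all 27025 genes in the table. The search used the transcribed strand only. A match describes letters and does not show that a start site is used in this muscle.

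The array KO3 stood apart for the snoRNA probe sets. It gave the lowest value of the 6 arrays labelled KO for 43 of the 56 probe sets (76.8%), against 14.0% of all 21789 probe sets. The mean over the 56 probe sets was 6.41 on KO3, 6.65 to 6.77 on the other arrays labelled KO, and 6.61 to 6.87 on the arrays labelled WT. WT4, the highest of its group, gave the top labelled WT value for 30 of the 56. The group means were 6.66 ± 0.13 on labelled KO arrays and 6.71 ± 0.09 on labelled WT arrays (SD, n = 6 each). Their difference was -0.05 with KO3 and -0.00 without it.

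**Figure D1:**
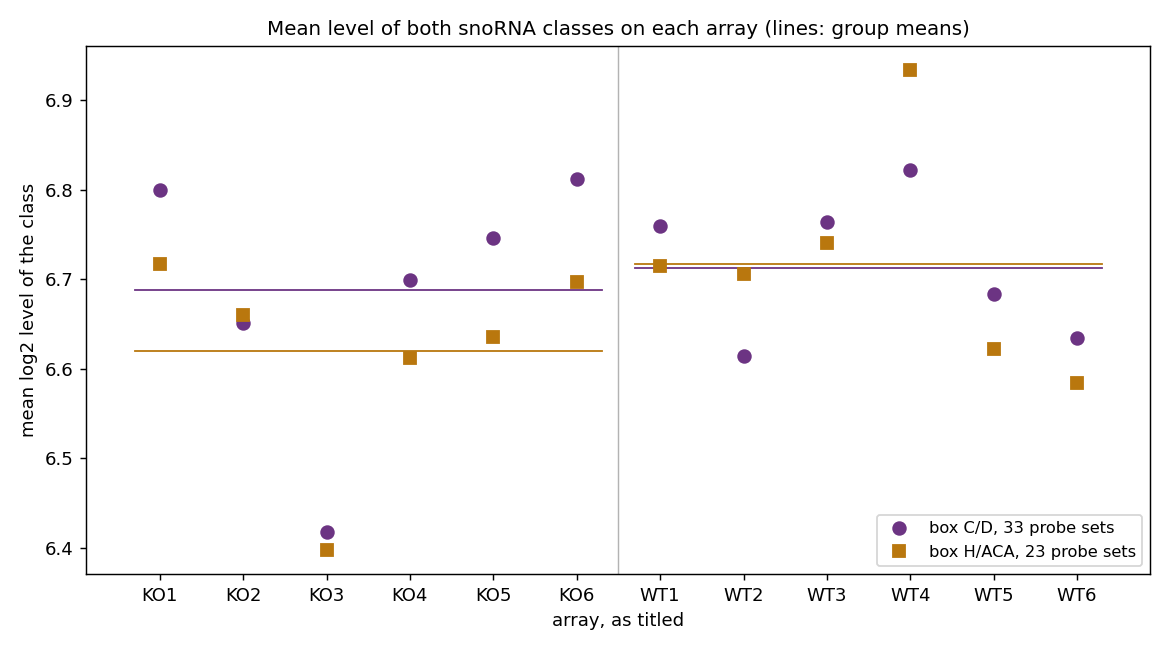
Mean log2 level (vertical axis, which does not start at 0) of the 33 box C/D probe sets (circles) and the 23 box H/ACA probe sets (squares) on each of the 12 arrays, with the mean of each group as a line. KO3 lies at 6.42 and 6.40, below every other array in both classes, and WT4 is the highest at 6.82 and 6.93.

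The levels of snoRNAs differed little between the groups. On the arrays labelled KO 3 of 56 probe sets (5.36%) changed, all 3 of them lower: Snora16a, Snora73a and Snord8. The same test called 31.9 percent of all 21789 probe sets, 19.5 percent higher and 12.4 percent lower. The differences between labelled KO and labelled WT ranged from -0.69 to 0.29 on the log2 scale among the 56 probe sets, with a median of -0.06, against a median of -0.02 over all tested probe sets. Values were below 0 for 35 probe sets and above 0 for 21. The 6 values labelled KO and the 6 labelled WT overlapped for every one of the 56 probe sets, while they did not overlap for 15.4 percent of all probe sets. Leaving out KO3 kept the 3 calls and added Snord42a (difference 0.26, adjusted p = 0.0412, limma) and Snord61 (0.23, adjusted p = 0.0228, limma) as higher.

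The snoRNA probe sets were measured less precisely than most. The median standard error of a difference was 0.0900 for the snoRNA probe sets and 0.0596 for all probe sets, and 23 of the 56 had a mean log2 level under 6. Among probe sets with a mean level of at least 6, refitted on their own, 5 of 33 snoRNA probe sets were called against 45.5 percent of all. Among probe sets whose standard error lay between 0.0706 and 0.125, the quartiles of the snoRNA values, 1 of 29 was called against 40.6 percent of all. The median size of a difference without its sign was 0.10 for snoRNAs and 0.11 for all probe sets. At an unadjusted p below 0.05 the counts were 8 of 56 (14.3%) against 42.6% of all.

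The intervals set a bound on what could have been missed. The 95% interval of the difference lay within 0.5 log2 units of 0, a fold of 1.41 in either direction, for 50 of the 56 probe sets (89.3%), against 85.7% of all probe sets. The exceptions were Snora16a, Snora73a, Snora44, Snora69, Snora23 and Snord73b. Changes smaller than this could have been missed for many members. The limit of 0.5 is not a limit of detection, since Snord8 was called at a difference of -0.26. A p-value above the threshold does not show that a snoRNA had the same level in both groups.

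**Figure D2:**
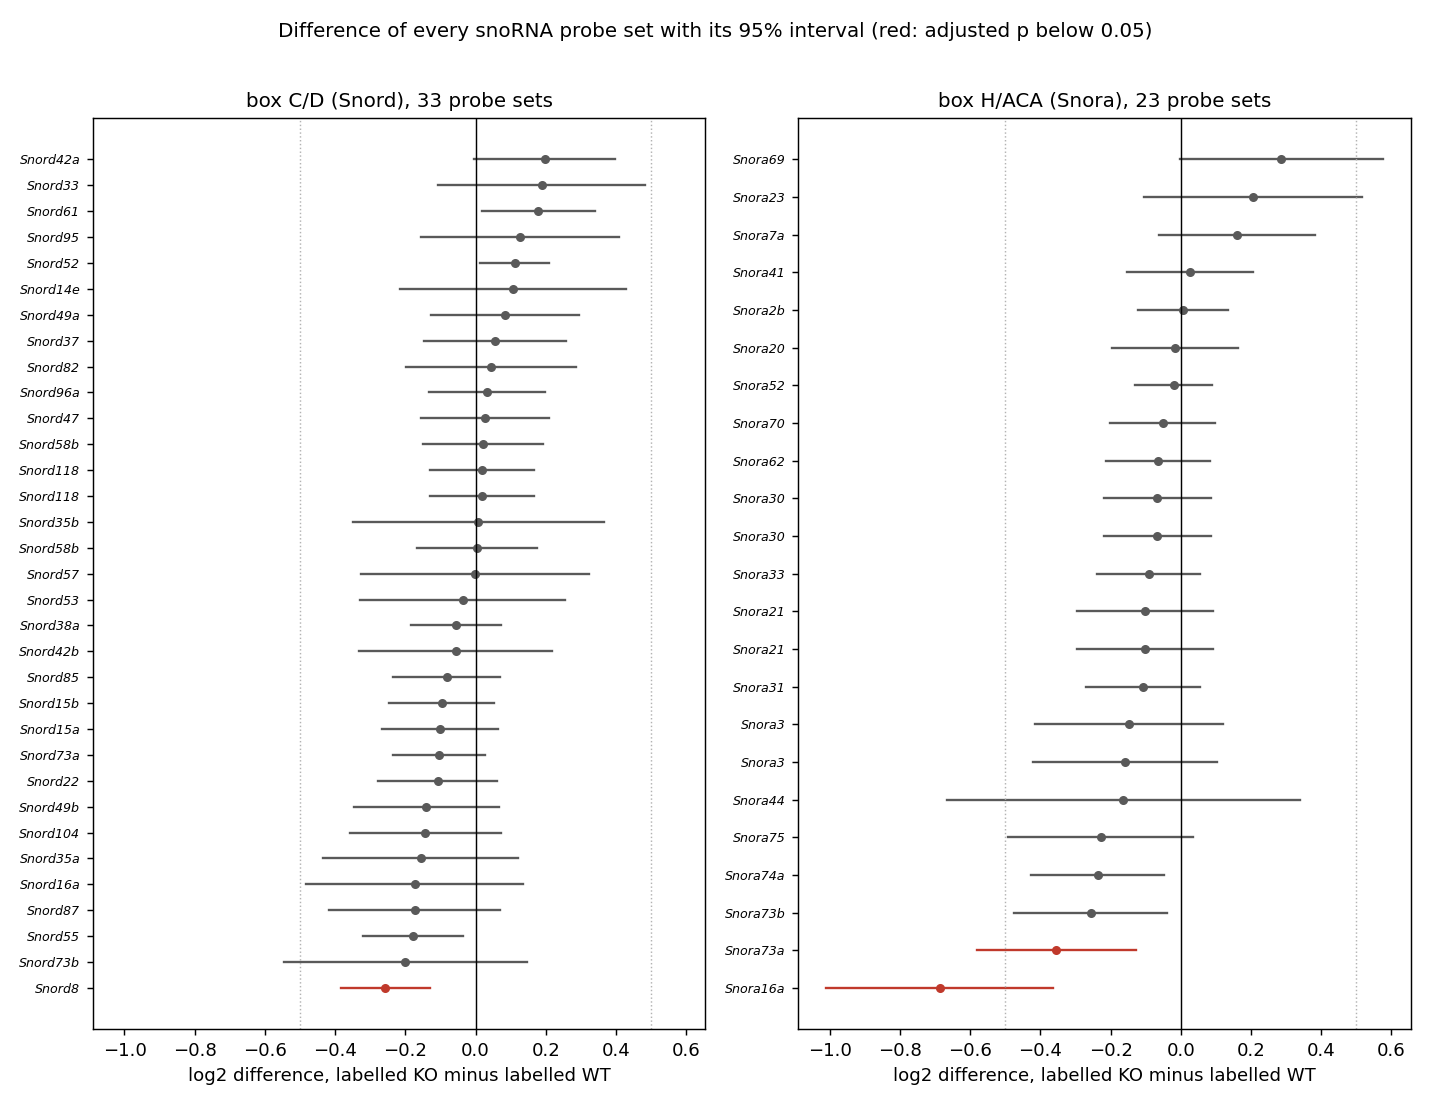
The log2 difference (labelled KO minus labelled WT, horizontal axis) of each of the 33 box C/D probe sets (left) and 23 box H/ACA probe sets (right), ordered by size, with 95% intervals from limma; dotted lines stand at 0.5 log2 units on either side of 0. The 3 red points, Snord8, Snora73a and Snora16a, passed the threshold and all lie below 0.

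The largest difference was that of Snora16a, a box H/ACA snoRNA inside Snhg12. Its log2 level was 7.67, 7.25, 6.60, 7.15, 7.12 and 7.33 on KO1 to KO6, against 7.99, 7.92, 7.73, 8.20, 7.91 and 7.49 on WT1 to WT6. KO2 to KO6 lay below every array labelled WT, and KO1 lay above WT6 only. The difference was -0.69 ± 0.15 (SE; 1.61-fold lower on labelled KO; adjusted p = 0.00344, limma). Without KO3, its lowest array, the difference was -0.57 (adjusted p = 0.00435, limma).

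Snora44 also lies inside Snhg12, and 1 array stood apart for it. Its levels were 8.55, 7.42, 7.13, 6.98, 6.95 and 7.17 on KO1 to KO6, against 7.82, 7.37, 7.39, 7.96, 7.30 and 7.34 on WT1 to WT6. KO1 was the highest of all 12 arrays, while 4 of the other arrays labelled KO lay below every array labelled WT. The difference was -0.16 ± 0.23 (SE) with KO1 (adjusted p = 0.623, limma) and -0.40 without it (adjusted p = 0.0334, limma).

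Snora73a and Snora73b, copies of the U17 RNA that acts in cleavage of the ribosomal RNA precursor, both lie in Snhg3. Snora73a measured 8.09, 8.22, 7.69, 7.88, 7.87 and 7.96 on KO1 to KO6, against 8.31, 8.28, 8.05, 8.67, 8.11 and 8.42 on WT1 to WT6. KO3, KO4, KO5 and KO6 lay below every array labelled WT. The difference was -0.36 ± 0.11 (SE; 1.28-fold lower; adjusted p = 0.0196, limma), and it was -0.30 without KO3 (adjusted p = 0.0443, limma). Snora73b measured 8.21, 8.30, 7.79, 7.87, 7.84 and 8.04 on KO1 to KO6, against 8.33, 8.32, 8.11, 8.57, 8.17 and 8.09 on WT1 to WT6. Its difference of -0.26 ± 0.10 (SE) did not pass (adjusted p = 0.0675, limma). The genes are near-identical copies, so their probes may read each other's RNA and the pair should not be counted as separate evidence.

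Snord8, a box C/D snoRNA inside the chromatin remodeller gene Chd8, was the member of its class that passed. It measured 6.71, 6.88, 6.74, 6.77, 6.89 and 6.81 on KO1 to KO6, against 7.08, 6.88, 6.94, 7.17, 7.21 and 7.06 on WT1 to WT6. Only WT2, which equalled KO2 and lay below KO5, fell inside the range of the arrays labelled KO. The difference was -0.26 ± 0.06 (SE; adjusted p = 0.00473, limma). Chd8 itself differed by -0.06 ± 0.07 (SE; adjusted p = 0.565, limma). Snora16a, Snora73a and Snord8 were called under all 9 other ways of processing or testing and after leaving out each of the 12 arrays.

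**Figure D3:**
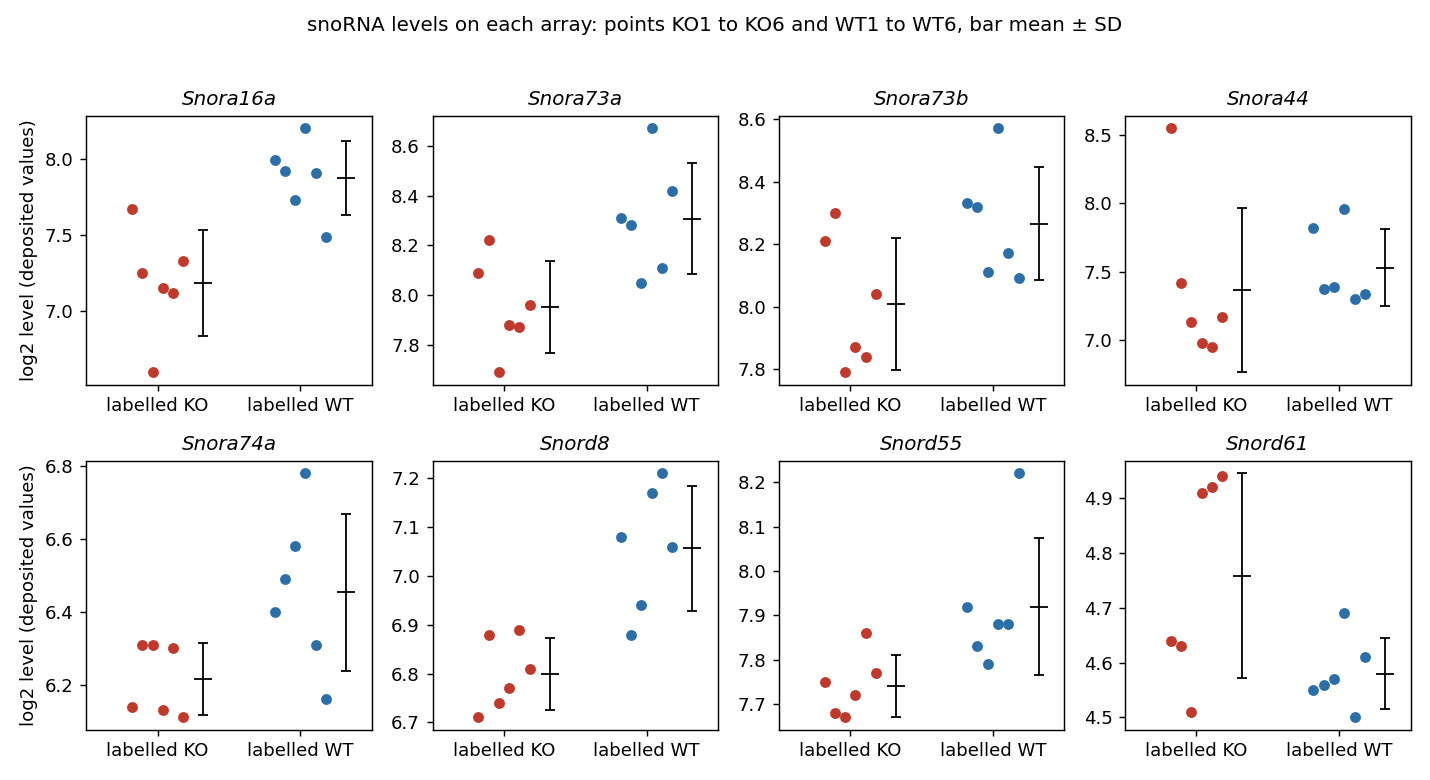
Log2 levels of 8 snoRNAs (vertical axes, each with its own range that does not start at 0) on the arrays labelled KO (red, left) and labelled WT (blue, right), KO1 to KO6 and WT1 to WT6 from left to right, with the mean and SD of each group in black. Snora16a, Snora73a and Snord8 passed the test; for Snora44 the array KO1 stands apart at 8.55, and for Snord55 the array WT6 at 8.22.

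Several members lay close to the threshold. Snora74a, the U19 RNA, measured 6.14, 6.31, 6.31, 6.13, 6.30 and 6.11 on KO1 to KO6, against 6.40, 6.49, 6.58, 6.78, 6.31 and 6.16 on WT1 to WT6 (difference -0.24, adjusted p = 0.0542, limma). Snord55 measured 7.67 to 7.86 on arrays labelled KO (median 7.74) and 7.79 to 8.22 on arrays labelled WT (median 7.88), with a difference of -0.18 (adjusted p = 0.0525, limma). On the upper side, Snord61 measured 4.64, 4.63, 4.51, 4.91, 4.92 and 4.94 on KO1 to KO6, against 4.55, 4.56, 4.57, 4.69, 4.50 and 4.61 on WT1 to WT6. KO4, KO5 and KO6 lay above every array labelled WT and KO3 below all but WT5, for a difference of 0.18 (adjusted p = 0.0844, limma). Snord52 measured 4.31 to 4.52 on arrays labelled KO and 4.16 to 4.37 on arrays labelled WT, with a difference of 0.11 (adjusted p = 0.0767, limma). The largest positive difference, 0.29 ± 0.13 (SE) for Snora69, came with an adjusted p of 0.120 in limma.

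The classes were set side by side as a description. In the box C/D class 1 of 33 probe sets changed and in the box H/ACA class 2 of 23, all lower, where 31.9 percent of all probe sets changed and 12.4 percent were lower. In the box C/D class 16 differences were above 0 and 17 below, and the median was -0.00 within a range of -0.26 to 0.20. In the box H/ACA class 5 differences were above 0 and 18 below, and the median was -0.09 within a range of -0.69 to 0.29. The class medians thus lay 0.09 log2 units apart. With 1 probe set for each gene they were closer, at -0.04 for the 31 box C/D genes and -0.08 for the 20 box H/ACA genes. Median centring gave -0.06 for box C/D and -0.15 for box H/ACA, and quantile normalization of the 12 arrays -0.02 for both, with a difference between the classes of -0.00.

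Among the RNAs that act in precursor cleavage, the 2 probe sets of Snord118 (U8) held the same values on all 12 arrays and differed by 0.02 ± 0.07 (SE; adjusted p = 0.859, limma). Snord22 (U22) differed by -0.11 ± 0.08 (SE; adjusted p = 0.314, limma) and Snord14e, a U14 copy, by 0.11 ± 0.15 (SE; adjusted p = 0.615, limma). None of these passed, and Snord118 (mean level 4.23) and Snord22 (5.61) lay under a mean level of 6. Of the 2 copies of U17 described above, Snora73a passed as lower (-0.36, adjusted p = 0.0196, limma) and Snora73b did not pass. Of the members with the highest mean levels in their class, Snord57 averaged 10.55 ± 0.22 on labelled KO arrays and 10.55 ± 0.36 on labelled WT arrays, and Snord104 averaged 10.37 ± 0.24 and 10.51 ± 0.14 (SD, n = 6 each). Snord82 averaged 10.24 ± 0.10 on labelled KO arrays and 10.19 ± 0.29 on labelled WT arrays (SD, n = 6 each). Snora52, in the box H/ACA class, averaged 11.29 ± 0.09 on labelled KO arrays and 11.31 ± 0.08 on labelled WT arrays, with a 95% interval of the difference of -0.13 to 0.09. Snora7a averaged 8.86 ± 0.14 on labelled KO arrays and 8.70 ± 0.25 on labelled WT arrays (SD, n = 6 each; adjusted p = 0.256, limma).

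Of the 51 genes 5 had 2 probe sets each. Those of Snora30 and of Snord118 were identical on every array. Those of Snora3 (correlation 0.993 over 12 arrays), Snord58b (0.983) and Snora21 (0.891) differed by at most 0.16, 0.09 and 0.21 log2 units, and in each of these genes both differences had the same sign. Such probe sets are repeated readings of 1 gene and not separate members.

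The position of the genes was not used to choose them. By the RefSeq coordinates, 49 of the 51 genes lay inside another gene, 21 of them in a ribosomal protein gene and 8 in Gas5 or a gene of the Snhg family, and Snord118 and Snord104 lay in none. In all 10 pairs of snoRNA genes shared a host. After removing the group means, the correlation between the members of such a pair over the 12 arrays had a median of 0.48 and ranged from 0.00 to 0.83, beside a median of 0.35 for the other 1525 pairs of probe sets of different genes, in which the 5 genes with 2 probe sets enter more than once. All pairs share the same arrays, so these values only describe the data. Snora73a and Snora73b in Snhg3 (0.83) and Snord49a and Snord49b in 2410006H16Rik (0.81) moved together most closely, followed by Snora16a and Snora44 in Snhg12 (0.69) and Snord35a and Snord33 in Rpl13a (0.62). Lower values were those of Snord96a and Snord95 in Rack1 (0.54), Snord42a and Snord42b in Rpl23a (0.42), Snord73a and Snord73b in Rps3a1 (0.27), Snord15a and Snord15b in Rps3 (0.22) and Snora75 and Snord82 in Ncl (0.14).

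The hosts were compared with the snoRNAs inside them. For 27 snoRNA genes a single host was measured, 23 hosts in all. Each host was read from its brightest probe set, which was not checked to lie at the place of the snoRNA. Of these hosts 11 changed, 9 of them lower and 2 higher on labelled KO arrays, while 0 of the 13 snoRNAs inside them did, and 9 of the 13 differed in the direction of the host. Over all probe sets 31.9 percent changed and 12.4 percent were lower. Snhg12 and Snhg3, the hosts of Snora16a and Snora73a, had 0 probe sets with exactly 1 symbol and were not compared. Of the 3 called snoRNAs, Snord8 was thus the 1 with a measured host, Chd8, which did not pass. The median standard error was 0.0519 for the hosts and 0.0840 for the snoRNAs, and the difference between a snoRNA and its host was not tested. Over the 27 genes the correlation of the differences was 0.17, and genes that share hosts and arrays are not independent points.

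The pair furthest apart was Snora23 and Ipo7, the gene of importin 7, a nuclear import receptor that carries ribosomal proteins. Ipo7 measured 10.68, 10.52, 10.46, 10.39, 10.48 and 10.46 on KO1 to KO6, against 10.90, 10.79, 10.75, 10.82, 10.88 and 10.96 on WT1 to WT6, and its groups did not overlap (difference -0.35 ± 0.05 SE, adjusted p = 0.000231, limma). Snora23 measured 7.74, 7.75, 7.95, 8.22, 8.22 and 8.25 on KO1 to KO6, against 7.66, 7.78, 8.09, 8.25, 7.80 and 7.32 on WT1 to WT6. All values labelled KO lay within the range of those labelled WT, with a difference of 0.21 ± 0.14 (SE; adjusted p = 0.298, limma).

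Nop56 and Rbmx were the hosts that rose. Nop56, whose product is itself a core protein of box C/D particles, rose by 0.29 ± 0.07 (SE; adjusted p = 0.00754, limma), beside a difference of -0.00 ± 0.15 (SE) for Snord57 inside it. Rbmx, which encodes a splicing regulator, rose by 0.32 ± 0.09 (SE; adjusted p = 0.0116, limma), beside 0.18 ± 0.07 (SE) for Snord61. Among the hosts that fell were Rps3a1 (-0.22), Tcp1 (-0.20), Eef2 (-0.16), Ncl (-0.16), Rpl10 (-0.14), Rps12 (-0.13), Rpl23 (-0.11 on its brighter probe set, and -0.02 with an adjusted p of 0.815 in limma on its other) and Rpl4 (-0.11). The calls of Rps3a1, Rps12 and Rpl4 were lost without KO2 or without KO3. Gas5, a noncoding host that is translated into no protein, fell by 0.50 ± 0.10 (SE; adjusted p = 0.00131, limma) on its brightest probe set, with differences of -0.18, 0.06 and 0.09 on its other 3. Of 6 measured genes in the Snhg and Gas5 list, 3 fell (Gas5, Snhg16 by 0.34 and Snhg5 by 0.30) and 0 rose. Beside these stand 31.9 percent called and 12.4 percent lower of all probe sets.

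**Figure D4:**
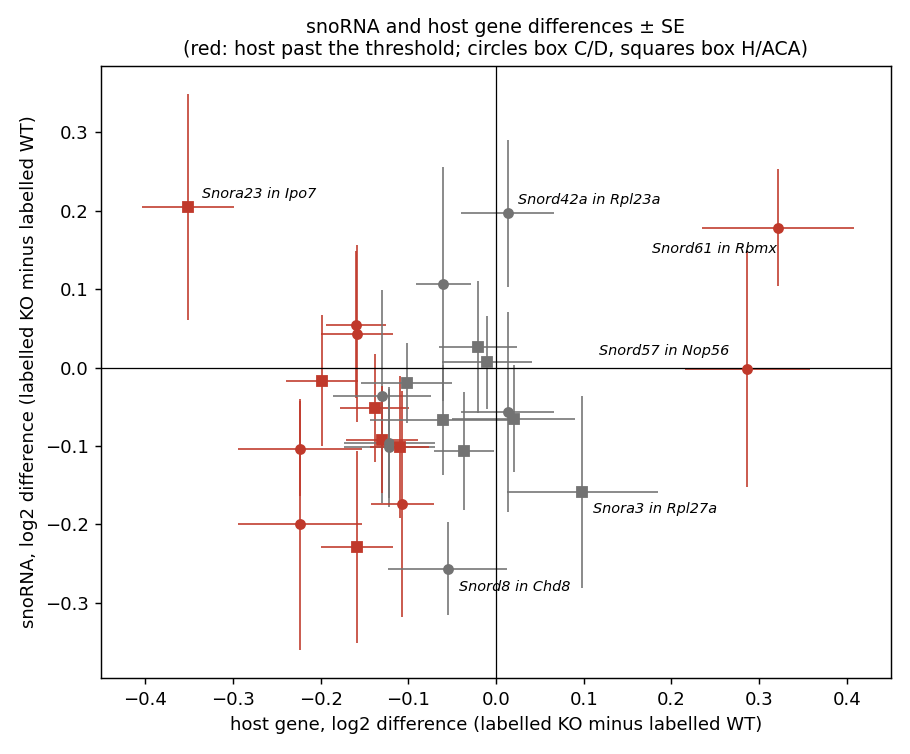
For 27 snoRNA genes, the log2 difference (labelled KO minus labelled WT) of the snoRNA (vertical axis) against that of its host gene (horizontal axis), both with standard errors; circles are box C/D and squares box H/ACA genes, and red points have a host past the threshold. The 13 red points spread over both sides of 0 on the vertical axis, and Snora23 in Ipo7 lies at 0.21 against -0.35.

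Genes for the proteins of the snoRNA particles were next described, from lists of textbook members. Of the 5 genes in the box C/D core list, which takes in Rrp9 of the U3 particle, Nop56 was the 1 that rose. Fbl, the methyltransferase, differed by 0.04 ± 0.06 (SE), Nop58 by 0.15 ± 0.07, Snu13 by 0.05 ± 0.04 and Rrp9, which binds the U3 RNA, by 0.18 ± 0.07, and none of these 4 passed (adjusted p from 0.0784 to 0.634, limma). Of the 4 core genes of the box H/ACA particle 2 rose, where 19.5 percent of all probe sets were higher. Dkc1, which encodes the pseudouridine synthase dyskerin, measured 8.56, 8.56, 8.53, 8.67, 8.53 and 8.61 on KO1 to KO6, against 8.09, 8.27, 8.25, 8.52, 8.28 and 8.27 on WT1 to WT6. Its groups did not overlap, with a rise of 0.30 ± 0.06 (SE; adjusted p = 0.00183, limma). Nop10 rose by 0.20 ± 0.05 (SE; adjusted p = 0.00576, limma), while Gar1 differed by -0.05 ± 0.06 and Nhp2 by 0.03 ± 0.05 (SE).

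In the list of 22 genes of particle assembly and snoRNA processing 8 rose and 1 fell, with a median difference of 0.14, where 19.5 percent of all probe sets were higher and 12.4 percent lower. The largest rise was that of Ruvbl2, an ATPase of the R2TP chaperone complex that helps to build both particle types. It measured 8.71, 8.66, 8.72, 8.49, 8.78 and 8.70 on KO1 to KO6, against 8.05, 7.98, 8.16, 8.11, 8.23 and 8.03 on WT1 to WT6 (difference 0.58 ± 0.06 SE, adjusted p = 8.64e-06, limma). Every array labelled KO lay above every array labelled WT. Pih1d1, another R2TP subunit, rose by 0.26 (adjusted p = 0.00207, limma), Exosc3 of the RNA exosome by 0.24 on its brighter probe set (adjusted p = 0.00232, limma; -0.06 on its other, adjusted p = 0.384), and Tcof1, a nucleolar protein, by 0.25 (adjusted p = 0.0129, limma). Nolc1, Smn1, Shq1 and Ruvbl1 were the others that rose, and Phax, an adaptor for the transport of U3 and other small RNAs, fell by 0.16 (adjusted p = 0.0239, limma). These calls depended on scaling. Centring each array on its median moved every difference by -0.06, and the 12 calls of the 31 core and assembly genes (11 higher) became 11 (7 higher), with Nolc1, Smn1, Shq1 and Ruvbl1 no longer called. After quantile normalization 12 were called (8 higher). Over all probe sets 61.1% of the calls were higher on the deposited scale and 36.2% after median centring. Nop56, Dkc1, Nop10, Ruvbl2, Pih1d1 and Exosc3 were called higher under every alternative run, on the brighter probe set for Exosc3, whereas Phax lost its call without KO3 or KO5, and Nolc1, Smn1 and Ruvbl1 lost theirs without 8 or 9 of the 12 arrays taken singly.

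**Figure D5:**
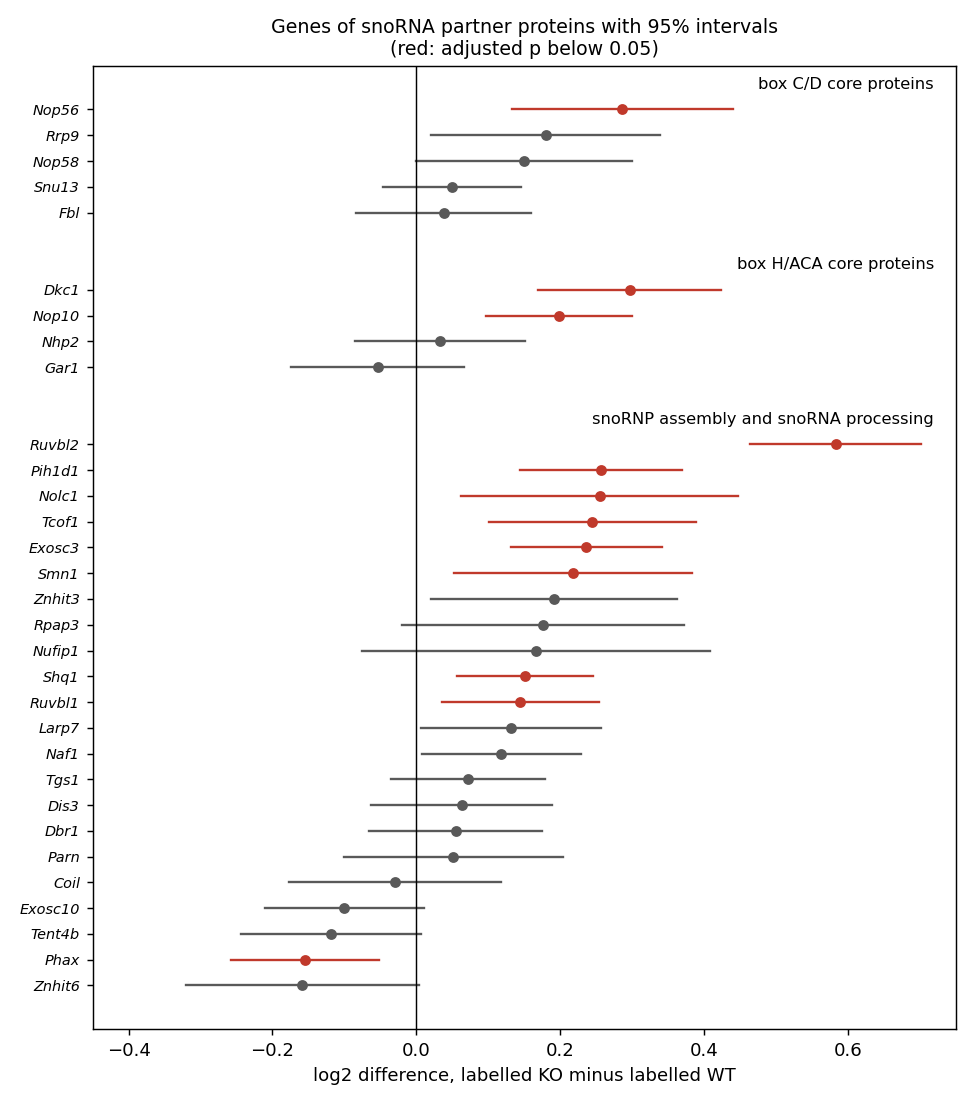
The log2 difference (labelled KO minus labelled WT, horizontal axis) with 95% intervals, in red where the adjusted p was below 0.05. The genes are the 5 of the box C/D core list, the 4 box H/ACA core genes and the 22 assembly and processing genes. Ruvbl2 stands furthest right at 0.58, and Phax is the red point below 0.

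Other genes of the nucleolus and other short RNAs were set beside the snoRNAs. Of 35 genes of ribosomal RNA synthesis and processing 3 rose and 5 fell (median 0.02), among them Rrp12, a factor for export of ribosomal subunits, which fell by 0.49, Taf1d, a subunit of the RNA polymerase I initiation factor SL1, which rose by 0.29, Nop14, a small subunit processing factor, which fell by 0.26, and Npm1, the nucleolar chaperone nucleophosmin, which fell by 0.22. Of 61 cytosolic ribosomal protein genes 3 rose and 15 fell (median -0.05). Among 15 small Cajal body and other small RNA genes 1 fell and 0 rose: Scarna13, a guide RNA of the Cajal body (difference -0.47 ± 0.12 SE, adjusted p = 0.00719, limma), which measured 9.11, 9.11, 8.94, 9.18, 8.95 and 9.49 on KO1 to KO6, against 9.52, 9.71, 9.59, 9.97, 9.57 and 9.21 on WT1 to WT6. Of 260 microRNA genes outside the Dlk1 to Dio3 cluster 78 fell and 0 rose (median -0.11), a count that was 136 after median centring and 50 after quantile normalization. Beside the 3 of 56 snoRNA probe sets stand 1 of these 15 small RNA genes and 78 of 260 microRNA genes (30 percent). For all these lists the share over all probe sets was 31.9 percent called, 19.5 percent higher and 12.4 percent lower. The difference between these shares was not tested.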

How the data were processed

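Total RNA of 12 quadriceps samples was measured on Affymetrix Mouse Gene ST arrays, 1 sample on each. According to the methods, RNA came from separate mice, and Affymetrix Power Tools gave the values per gene. The authors deposited log2 values, a scale that follows from their range, which were taken as normalized across arrays. How probes were summarised, with which version and on which genome build, is not given in the sources used here. No column lacked a sample (0 columns), and groups came from the titles.

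Of 35556 rows, 21789 had 1 symbol in the platform annotation, 1621 had several and 12146 were not listed. Differences (labelled KO minus labelled WT) were fitted with lmFit and eBayes of limma 3.58.1 in R 4.3.3 without covariates or filter on dim probe sets, and adjusted by Benjamini-Hochberg over the 21789 probe sets at a threshold of 0.05. Standard errors and 95% intervals are moderated. The fit was tested on simulated data, in which it recovered 24 of 50 probe sets changed by 0.25 log2 units and 47 of 50 changed by 0.5 among 21789. The simulation had the spread of all probe sets, which was smaller than that of the snoRNA probe sets. A smaller share of probe sets was changed in it than was called in the data. Its counts therefore do not measure how many snoRNA changes the fit would find. Any other gene was read from its brightest probe set by mean level. The place of a host's probe set in the genome was not compared with that of the snoRNA.

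Hosts were the genes that contain a snoRNA in the RefSeq table of GRCm38.p6; the strand of the snoRNA was not compared. The planned search for the box C letters in the snoRNA genes was not run, and no snoRNA sequence was used here. The values of 1 pair of snoRNA genes with a shared host are not reported here. The members and lists were chosen with earlier results of these data known, and the lists were written from textbook knowledge. Genes were named where they passed in a list (up to 4 of the largest changes), belonged to a core list, shared a host, or were among the 3 most abundant of a class. Snora74a, Snord55, Snord61, Snord52, Snora69, Snora23 and the host genes past the threshold were named after their values were seen. The alternatives were array weights, trended robust eBayes, median centring, quantile normalization, the methods' t-test, the replicate block, all rows, a filter on mean level and leaving out each array. The comparison at matched standard error was added after the data were seen.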

Additional observations from a re-analysis of the deposited data

Results flagged for a closer look

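In 15 of 128 groups of 6 arrays the highest or lowest value lay apart from the others by more than Dixon's 95% limit. Chance alone gives about 1 in 20 where groups are independent. The groups here share arrays and include means over the same members, so 1 array can give several of these cases. Array KO3 accounted for 6 of the 15, each a low value: 5.27 for Snora75, 9.39 for Snord49b, 5.16 for Snora21, 4.71 for Snora20, 8.59 for Snora7a, and 6.40 for the mean of the box H/ACA probe sets. The nearest other arrays labelled KO were at 5.55, 9.74, 5.55, 5.03, 8.86 and 6.61. Array KO1 was high for Snora44 (8.55, next 7.42), Snord35b (8.41, next 7.75) and the core protein gene Snu13 (11.49, next 11.33), and KO6 was high for Rrp9 (8.11, next 7.84). Among arrays labelled WT, WT2 was low for Snord104 (10.25, next 10.48) and Snord73b (7.85, next 8.29), and WT6 was high for Snord55 (8.22, next 7.92) and low for Snord14e (6.43, next 7.09). The probe sets listed under Snord116l1 were high on WT2 (median 9.06, next 6.18). What set these arrays apart was not tested.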

How the results depend on the processing

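The 3 snoRNA calls held under every alternative, and no called value turned its sign. The count of snoRNA probe sets called, 3 on the deposited values, was 7 with array weights, 6 after median centring, 8 after quantile normalization, 7 by the methods' t-test without adjustment and 5 without dim probe sets, and 3 to 6 when 1 array was left out. Some of these were higher: 2 with array weights (Snord52, Snord61), 3 after quantile normalization (Snord42a, Snord52, Snord61), 1 by the unadjusted t-test and 1 with a trended robust fit (Snord52), against 0 after median centring. Snord52 was also called higher without WT4. With 1 array left out the count was highest without KO1, which added Snora44, Snora73b and Snord87. For box C/D the count of 1 was 4 with array weights, 2 with a trended robust fit, 2 after centring, 5 after quantile normalization, 3 by the unadjusted t-test, 2 without dim probe sets, and 1 to 3 with 1 array left out. For box H/ACA the count of 2 was 4 after centring and 4 by the unadjusted t-test, and 2 to 4 with 1 array left out. The microRNA count of 78 was 136, 50 and 41 under centring, quantile normalization and without dim probe sets. The last was counted over only the microRNA genes with a mean level of at least 6. The causes were not tested. Under these settings 27.2% to 45.5% of all probe sets were called, except 23.8% over all rows. Of 1052 values of single snoRNA genes under the alternatives, 54, all of uncalled differences in 19 genes, had the other sign. The difference between the class medians ranged from 0.04 to 0.11 with 1 array left out and was 0.02 with array weights.

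The replicate number as a block gave 3 snoRNA calls and ended those of Nolc1, Smn1, Ruvbl1, Phax, Rpl23, Rpl4 and Rps12. The methods describe pairs of littermates, but arrays of the same number did not deviate together (correlations of -0.22 to 0.17, highest with the own number for 2 of 6), so the numbers were not taken as pairs. With 1 array left out, calls were lost for Rps3a1 (KO2 or KO3), Rps12 (also WT4 or WT5), Rpl4 (KO2 to KO5 or WT2 to WT4) and Snhg5 (KO1 to KO3, WT2, WT5 or WT6). Without depth or detection calls, dim probe sets cannot be told from background, and 23 of the 56 lay under a mean level of 6.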

Other observations

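The largest spread among snoRNA probes lay outside the 56 probe sets. The 24 probe sets listed under Snord116l1, Snord116l2 and Gm26504, repeated box C/D genes of the imprinted region of chromosome 7 that neurons are known to express, had medians of 5.16, 8.98, 4.79, 6.72, 5.49 and 6.66 on KO1 to KO6, against 4.95, 9.06, 5.05, 6.18, 4.60 and 4.56 on WT1 to WT6. KO2 and WT2 stood far above the others, and the highest array was 22.6-fold above the lowest. Of all 21789 tested probe sets 16 spanned more than 4 log2 units, and the widest of the 56 snoRNA probe sets spanned 1.60. The 24 probe sets held 7 distinct profiles, so they are repeated readings of few signals. Between the groups they did not pass (difference 0.57 ± 0.84 SE, adjusted p from 0.661 to 0.694, limma over all rows).

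Neuron markers were measured on the same arrays. Stmn2 was 8.31 on KO2 and 7.18 to 7.32 on the other arrays labelled KO, against 7.52 on WT2 and 6.82 to 7.46 on the others labelled WT. Nefl was 5.82 on KO2 and 4.96 to 5.12 on the other arrays labelled KO, against 5.05 on WT2 and 4.83 to 5.18 on the others labelled WT. Syt1 was 6.73 on KO2 and 5.83 to 6.04 on the other arrays labelled KO, against 6.18 on WT2 and 5.94 to 6.08 on the others labelled WT. Snap25 was 6.53 on KO2 and 5.82 to 6.04 on the other arrays labelled KO, against 6.05 on WT2 and 5.84 to 6.06 on the others labelled WT. Rbfox3 was 6.04 on KO2 and 5.59 to 5.82 on the other arrays labelled KO, against 5.98 on WT2 and 5.71 to 5.96 on the others labelled WT. KO2 was thus the highest of its group for all 5 markers, and WT2 for 3 of them (Stmn2, Syt1 and Rbfox3). The probe set of Snurf and Snrpn, at the start of the imprinted region, was 7.71 on KO2 and 7.38 to 7.76 on the other arrays labelled KO, against 7.49 on WT2 and 7.03 to 7.31 on the others labelled WT. The part of these genes in the Snord116 values was not tested. Of 4 measured protein-coding neighbours in the imprinted region 2 were called higher, where 19.5 percent of all 21789 probe sets were. Ndn rose by 0.61 ± 0.07 (SE; adjusted p = 4.15e-05, limma) and Magel2 by 0.15 ± 0.05 (SE; adjusted p = 0.0445, limma). Mkrn3 differed by -0.07 and Peg12 by -0.08. The other 17 probe sets with several symbols and a snoRNA among them differed by -0.28 to 0.25. In limma over all rows 0 of them were called, where 23.8 percent of all rows were. An unadjusted p below 0.05 in limma was found for 1 of all 41, beside 42.6% of the 21789 tested probe sets. Among the 41, the 24 of Snord116 held only 7 profiles.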
